A study of Mus musculus with 44 samples.

Results

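The mitochondrial DNA-encoded respiratory chain genes described here were mt-Nd1, mt-Nd2, mt-Nd4, mt-Nd5, mt-Cytb and mt-Co1. They were 6 of the 11 symbols starting with mt- in a count table of 19910 genes, and were followed in all 44 libraries. The 6 were chosen by a measured value: their aged against young fold changes in an earlier comparison of these counts, that of the columns headed AM D7. By the titles used below, those columns were CD25pos D7 young 1 to 3 and MoAM D14 aged 1 against CD25pos D7 aged 1 to 3. The aged against young difference in CD25pos is therefore a description and supports nothing.

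Expression was measured by 3′ tag sequencing of cells sorted from mouse lungs. The mice, labelled Bl6, were young recipients of a marrow transplant, and the donor was young or aged. Once the marrow had reconstituted they were given bleomycin, a drug that scars the lung, into the trachea at 1 U/kg, and no group used here went without it. Young and aged below mean the donor marrow, which leaves lung cells of the host in place where they were not replaced. Populations labelled as follows were taken at D7, counted from bleomycin: Monocytes with 2 young and 3 aged libraries, MoAM with 4 and 4, AM with 3 and 4, CD25pos with 3 and 3 and CD25neg with 4 and 2. MoAM and AM were taken again at D14 with 3 young and 3 aged libraries each. The comparisons address the effect of an aged blood system on immune cells of the fibrotic lung. The labels give neither the age of the donors nor whether libraries of a group came from separate mice, so the p-values measure a spread between libraries that may be technical. Total counts ran from 126283 to 9921734 with a median of 1780800.

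The titles of the libraries were reassigned, and every result below rests on that step. The column headers were sorted byte by byte, and the title of the sorted header was given to the data column at the same place, which moved all 44 columns to another population. No source used here records such a shift. Libraries were ranked by the mean log2 level over each list of markers. With the sorted titles, the 12 libraries highest in T cell markers were 12 CD25pos or CD25neg libraries, against 0 of 12 with the printed headers. The 13 highest in markers of resident alveolar macrophages were 13 AM libraries, against 0 of 13, and the 5 highest in classical monocyte markers were the 5 Monocytes libraries, against 0 of 5. These genes bear on the population of a library, and they do not show its marrow age or its day. All comparisons were repeated with the printed headers. The closing section gives the larger changes in the number of genes called, the called log2 values that reversed and the share differences. CD25pos libraries also held macrophage markers, 10 genes summing to 4409 to 6257 CPM (a gene's counts per 1000000 counts of its library) in young and 7541 to 9146 CPM in aged, against 212 to 2372 CPM in CD25neg young and 2893 to 3163 CPM in CD25neg aged. By sums, classical monocyte markers ranked differently, with 4385 to 5195 CPM in Monocytes young and 6823 to 11167 CPM in Monocytes aged. They summed to more in AM D7, 15057 to 15650 CPM in young and 14784 to 16945 CPM in aged.

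Mitochondria carry a small circular genome of their own, which codes for a few core subunits of the respiratory chain, while the nucleus codes for all other subunits. mt-Nd1, mt-Nd2, mt-Nd4 and mt-Nd5 code for membrane subunits of complex I, the NADH dehydrogenase that starts the chain. mt-Cytb codes for cytochrome b, the mitochondrial subunit of complex III, and mt-Co1 codes for the catalytic subunit of complex IV, which passes electrons to oxygen. Both strands are transcribed as long precursors that are cut into single messages and given short poly(A) tails, so the levels of these messages also depend on their cutting and decay. Resident macrophages of the lung are known to lean on fatty acid oxidation and this chain, and macrophages activated by injury often raise glycolysis.

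A 3′ tag kit reads the end of a message next to its poly(A) tail, so the end of the message sets what could be counted. The ends of the gene models are printed from GENCODE M21 on GRCm38 to show where a stop codon is made by the tail. A message can run past the end of its gene model, so these bases need not lie next to the tail. The last 30 bases of each gene are given 5′ to 3′, with the final codon, or the part of a codon left at the end, in capitals.
mt-Nd1 (chrM:2751-3707, plus strand): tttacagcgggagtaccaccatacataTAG
mt-Nd2 (chrM:3914-4951, plus strand): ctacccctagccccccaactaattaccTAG
mt-Nd4 (chrM:10167-11544, plus strand): gtccaaaactaattacaggcctgacaataT
mt-Nd5 (chrM:11742-13565, plus strand): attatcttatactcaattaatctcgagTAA
mt-Cytb (chrM:14145-15288, plus strand): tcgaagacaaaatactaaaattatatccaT
mt-Co1 (chrM:5328-6872, plus strand): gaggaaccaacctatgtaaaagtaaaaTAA
mt-Co3 (chrM:8607-9390, plus strand): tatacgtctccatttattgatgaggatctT
Each is a single exon without introns. mt-Nd4, mt-Cytb and mt-Co3, a gene outside the 6, ended 1 base after their last whole codon, where the poly(A) tail completes the stop codon, and the other 4 ended in a whole stop codon.

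The other 5 mt- symbols had almost no counts. mt-Co2 was at 0 in 36 of 44 libraries and reached 10.4 CPM at most, mt-Atp6 was at 0 in 39 with a highest value of 4.43 CPM, and mt-Co3 was at 0 in 38 with a highest value of 7.92 CPM. mt-Nd3 ran from 0 to 108 CPM with a median of 3.33 CPM, and mt-Nd6, the only one coded on the other strand, ran from 0 to 47.99 CPM with a median of 20.8 CPM. mt-Nd6 overlaps the end of mt-Nd5, and the use of strand in counting is not given in the sources used here. Each of the 6 genes followed here was at 263 CPM or more in every library. Nuclear copies of mitochondrial sequence can make reads ambiguous, and whether such reads were kept is not given either. Every 50-base window of mt-Co2 was found letter for letter in a nuclear transcript of GENCODE M21 (100%), as were 99.5% of the windows of mt-Atp6, 99.9% of mt-Co3 and 97.99% of mt-Nd3. The shares were 0% for mt-Nd1 and mt-Cytb, 7.61% for mt-Nd5, 8.19% for mt-Nd2, 51.1% for mt-Co1 and 62.2% for mt-Nd4, and also 0% for mt-Nd6. None of the nuclear genes with the closest copies was in the count table. Among the 11 mt- symbols in the count table, the 4 with the highest shares of copied windows over the whole gene were those with a median of 3.33 CPM or less. Of the mitochondrial genes absent from the count table, mt-Nd4l had a share of 98.8% and mt-Atp8 of 0%. The last 300 bases of the gene models ranked differently. Of them, 100% were identical in the closest nuclear copy of mt-Co1, whose median was 2517 CPM, and 96.7% for mt-Nd2. The values were 92.3% for mt-Cytb, 85% for mt-Nd5, 82.3% for mt-Nd1 and 38.3% for mt-Nd4. They were 99% for mt-Co2, mt-Atp6 and mt-Nd3, 99.7% for mt-Co3 and 91.7% for mt-Nd6. The part of read handling in this was not tested, and levels of different genes are not compared.

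The mt- symbols together took 0.666% to 4.83% of a library's counts, with a median of 3.19%, and the 6 genes made up nearly all of this. MoAM D7 aged had the highest share at 4.50% ± 0.27 (SD, n = 4), from 4.83, 4.56, 4.18 and 4.42% in replicates 1 to 4. CD25neg young followed at 3.88% ± 0.35 (n = 4), then Monocytes aged at 3.86% ± 0.55 (n = 3), AM D7 aged at 3.48% ± 0.34 (n = 4), AM D14 young at 3.47% ± 0.24 (n = 3) and MoAM D7 young at 3.38% ± 0.36 (n = 4). AM D14 aged had 3.16% ± 0.60, AM D7 young 3.00% ± 0.20 and MoAM D14 young 2.84% ± 0.40 (n = 3 each). CD25pos young had 2.61% ± 0.36 and MoAM D14 aged 2.35% ± 0.16 (n = 3 each). Each of these groups overlapped with its neighbour in the order. CD25neg aged, at 1.90% ± 0.018 (n = 2), lay apart from its neighbours. CD25pos aged, with 1.02, 0.796 and 0.889%, and Monocytes young, with 0.666 and 0.886%, lay below every other library. The 95% Wilson interval of the lowest share, in Monocytes young 1, was 0.647% to 0.686%; such intervals cover counting error only. In a bulk sample, fewer mitochondria-rich cells and less mitochondrial RNA per cell cannot be told apart.

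**Figure D1:**
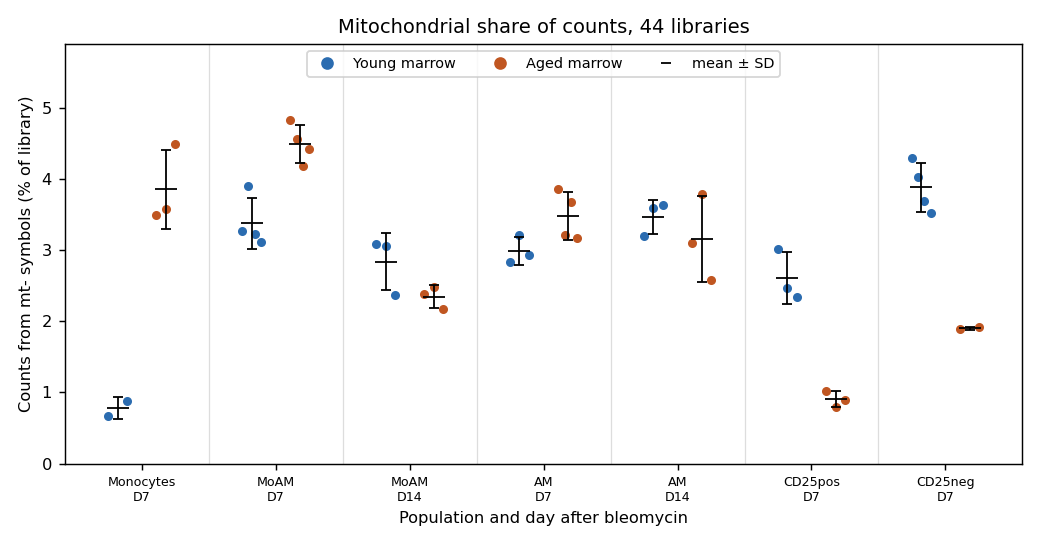
Share of all counts from symbols starting with mt- (percent, y axis) in each of 44 libraries, by population and day (x axis); points are libraries by marrow age, and bars are mean ± SD of each group. Aged and young points do not overlap in Monocytes, MoAM D7, CD25pos and CD25neg, and the 5 lowest points are Monocytes young (2) and CD25pos aged (3).

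In those 5 low libraries cytosolic ribosomal protein genes took 4.37% to 5.57% of counts, and the 3 Monocytes aged libraries had 6.54, 9.79 and 6.60% and the CD25pos young libraries 5.85, 9.55 and 9.02%. AM D14 young libraries had a ribosomal protein share of 4.01 to 4.95%, with 3.20% to 3.63% mitochondrial counts. Total counts were 658368 and 2259211 in Monocytes young 1 and 2 and 1291505, 234968 and 3140626 in CD25pos aged 1 to 3. The part of depth and of ribosomal protein share in the low mitochondrial share was not tested.

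The levels of the 6 genes varied together across libraries, and their proportions stood apart in 3 libraries. Over the 44 libraries the 15 pairs had a Pearson r of log2 CPM from 0.83 (mt-Nd4 with mt-Co1) to 0.98 (mt-Nd1 with mt-Cytb); the points share library and depth, and this is a description. Of the counts of the 6 genes, mt-Nd1 supplied 28.5% to 34.9% in 41 libraries but 22.7% to 24.2% in Monocytes aged 1, Monocytes aged 3 and CD25pos young 1. mt-Nd2 supplied 17.6% to 19.4% in these 3 against 9.29% to 16.3% elsewhere, and mt-Nd4 30.6% to 37.4% against 20.2% to 30.1%. mt-Nd5 was also higher there, 4.51% to 5.87% against 3.01% to 4.48%, and mt-Co1 lower, 4.54% to 5.57% against 5.95% to 11.02%. mt-Cytb supplied 11.6% to 14.4% in the 3 and 14.3% to 21.4% in the 41, so it overlapped. Thus complex I subunits other than mt-Nd1 took a larger part in those libraries. Monocytes aged 1 and 3 also had fewer genes detected in 100000 thinned counts, 7530 and 6667, against 8301 in Monocytes aged 2 and 9490 and 9463 in young. CD25pos young 1 had 8595 against 8766 and 8614 in its group. The 3 libraries were singled out after their values were seen.

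**Figure D2:**
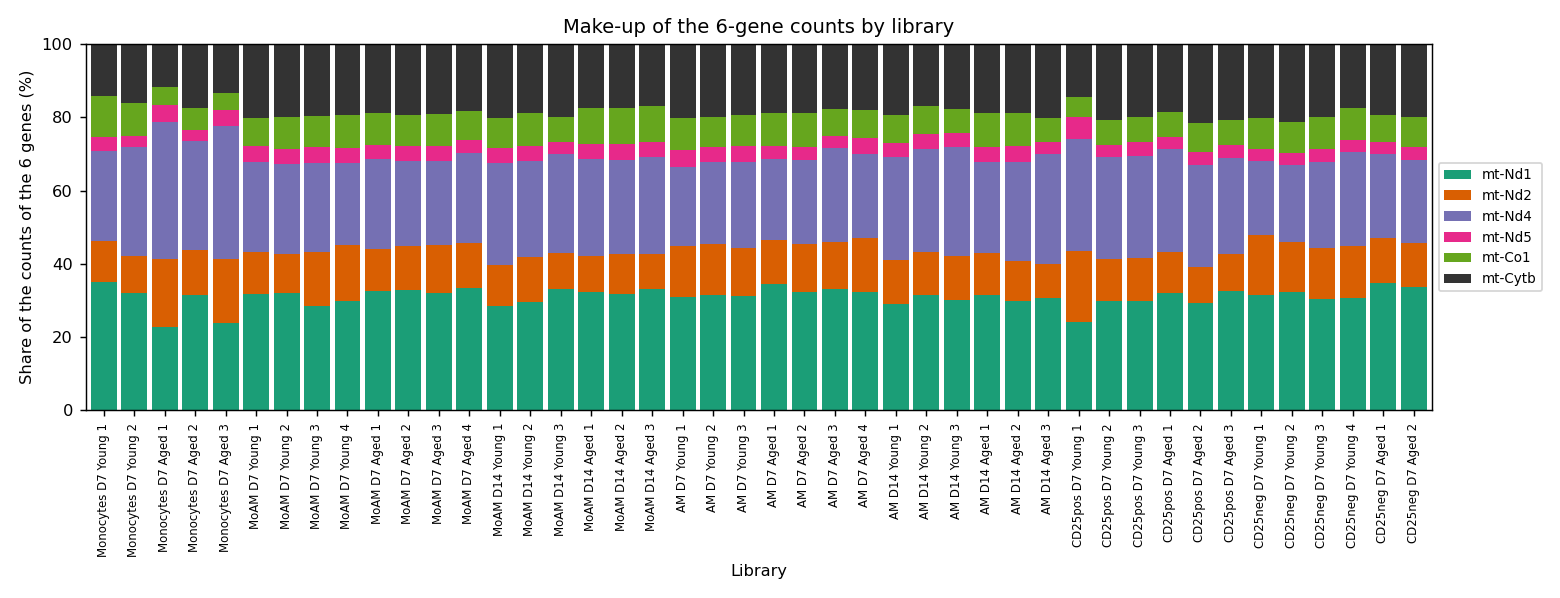
Make-up of the summed counts of the 6 genes in each library (x axis), as a share of that sum (percent, y axis, stacked to 100). Monocytes D7 aged 1 and 3 and CD25pos D7 young 1 show a smaller mt-Nd1 part (22.7% to 24.2%) and a larger mt-Nd2 part (17.6% to 19.4%) than the other 41 libraries.

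In MoAM at D7, 4 of the 6 genes were higher with aged marrow than with young: mt-Nd1, mt-Nd4, mt-Cytb and mt-Co1. By edgeR's quasi-likelihood test with Benjamini-Hochberg adjustment, which gave all adjusted p below, 1.24% of 10690 genes were called higher and 0.571% lower in this comparison. mt-Nd1 was at 10429.7, 12453, 9203 and 9303 CPM in young 1 to 4 and 15665, 14918, 13363 and 14695 CPM in aged 1 to 4. Every aged library was above every young one, by a log2 fold change (scaled by TMM, with standard error) of 0.52 ± 0.09, adjusted p = 0.000161. mt-Nd4 had 8038, 9553, 7787 and 6936 CPM in young and 11862, 10546, 9619 and 10842 CPM in aged (0.43 ± 0.09, adjusted p = 0.0049). Here the lowest aged library lay just above young 2. mt-Cytb, of complex III, had 6603, 7786, 6342 and 6007 CPM against 9042, 8781, 7977 and 8109 CPM (0.36 ± 0.09, adjusted p = 0.0216). mt-Co1, of complex IV, had 2552, 3358, 2738 and 2807 CPM against 4216, 3896, 3638 and 3428 CPM (0.43 ± 0.11, adjusted p = 0.0424), without overlap in either. Here and below, lack of overlap is a description, since its share over all genes tested is not given. mt-Nd2 did not pass, with 0.36 ± 0.11, adjusted p = 0.0627, nor did mt-Nd5, with 0.30 ± 0.11, adjusted p = 0.185, whose groups overlapped. The median of the 6 was 0.39, against 0.01 over all genes tested. Without aged 1 the count was 1 of 6, and it was 2 without aged 2, young 3 or young 4; mt-Nd1 passed in each. Limma voom called 1 of 6.

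Some markers of other cells were also higher. Of 6 endothelial markers 4 were higher in MoAM D7 aged, their sum being 367 to 437 CPM against 146 to 165 CPM, and 3 of 4 tested fibroblast markers, 49.5 to 104 CPM against 12.8 to 19.1 CPM. None of the 6 markers on either list was at 0 throughout a group. The 10 macrophage markers summed to 8749.7 to 8978 CPM in aged and 8689 to 8895 CPM in young, with 0 called. Sums of further lists did not overlap either, given as young and then aged. Erythroid and platelet markers had 629 to 689 and 909 to 1174 CPM, and neutrophil markers 1073 to 1826 and 2045 to 2120 CPM. Classical monocyte markers had 4142 to 4463 and 4751 to 5026 CPM, and T cell markers 34.2 to 43.3 and 51.0 to 71.2 CPM. Regulatory T cell markers had 56.2 to 64.2 and 85.1 to 101 CPM. B cell markers were lower in aged, with 68.3 to 138 and 37.1 to 62.9 CPM. The part of RNA of these cells in the difference of the mitochondrial genes was not tested.

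At D14 the direction in MoAM was the opposite, with 3 of 6 genes lower in aged: mt-Cytb, mt-Nd2 and mt-Nd4, where 2.46% of 10690 genes were called higher and 1.86% lower. mt-Cytb had 6218, 5772 and 4759 CPM in young 1 to 3 and 4192, 4365 and 3684 CPM in aged 1 to 3 (-0.52 ± 0.11, adjusted p = 0.00122), with no overlap. mt-Nd4 had 8582, 8039 and 6434 CPM against 6324, 6409 and 5722 CPM (-0.38 ± 0.11, adjusted p = 0.0277), where young 3 lay just above the aged libraries. mt-Nd2 had 3437, 3696 and 2316 CPM against 2372, 2679 and 2089 CPM (-0.47 ± 0.12, adjusted p = 0.0151), and young 3 was below aged 1 and 2. Young 3 was thus the low library of its group. mt-Nd1 (-0.24 ± 0.10, adjusted p = 0.21), mt-Nd5 (-0.24 ± 0.13, adjusted p = 0.348) and mt-Co1 (-0.07 ± 0.13, adjusted p = 0.872) did not pass. MoAM D14 aged 1 was among the libraries by which the genes were chosen; without it 1 of 6 passed, mt-Cytb, and 1 of 6 passed also without aged 3, young 1 or young 2. Genes of the dissociation response, induced while tissue is taken apart, were lower in the same libraries, 12 of 20 with a median of -0.50, among them Jund (-0.81), Egr1 (-0.67) and Hspa1a (-0.85). Endothelial markers were also lower in aged, with 2 of 6 called, 0 of 6 values above 0 and a median of -0.53, and they summed to 177 to 183 CPM in aged and 199 to 266 CPM in young. The part of either group of genes was not tested.

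The change of sign between the days was tested itself, as an added comparison chosen after the data were seen. The aged minus young log2 difference was lower at D14 than at D7 for 5 of 6 genes, where 3.01% of 10690 genes were called higher and 2.54% lower. The difference between the days was -0.88 ± 0.14 for mt-Cytb (adjusted p = 2.06e-05), -0.83 ± 0.16 for mt-Nd2 (0.000543), -0.81 ± 0.14 for mt-Nd4 (0.000119) and -0.76 ± 0.14 for mt-Nd1 (0.000141). mt-Nd5 passed at -0.55 ± 0.17 (0.044) and mt-Co1 did not at -0.49 ± 0.17 (0.0916). Leaving out any 1 library left 4 to 6 genes called, with 4 without MoAM D14 aged 1, 5 were called with depth as a covariate, and limma voom called 3. With the printed headers 0 were called, with log2 values from 0.52 to 0.84. The median log2 difference of the 6 endothelial markers also changed sign, from 1.16 at D7 to -0.53 at D14, and its part was not tested. None of 72 nuclear subunits of the respiratory chain and ATP synthase differed in this way (0 called in either direction, median 0.07, against -0.06 over all genes).

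**Figure D3:**
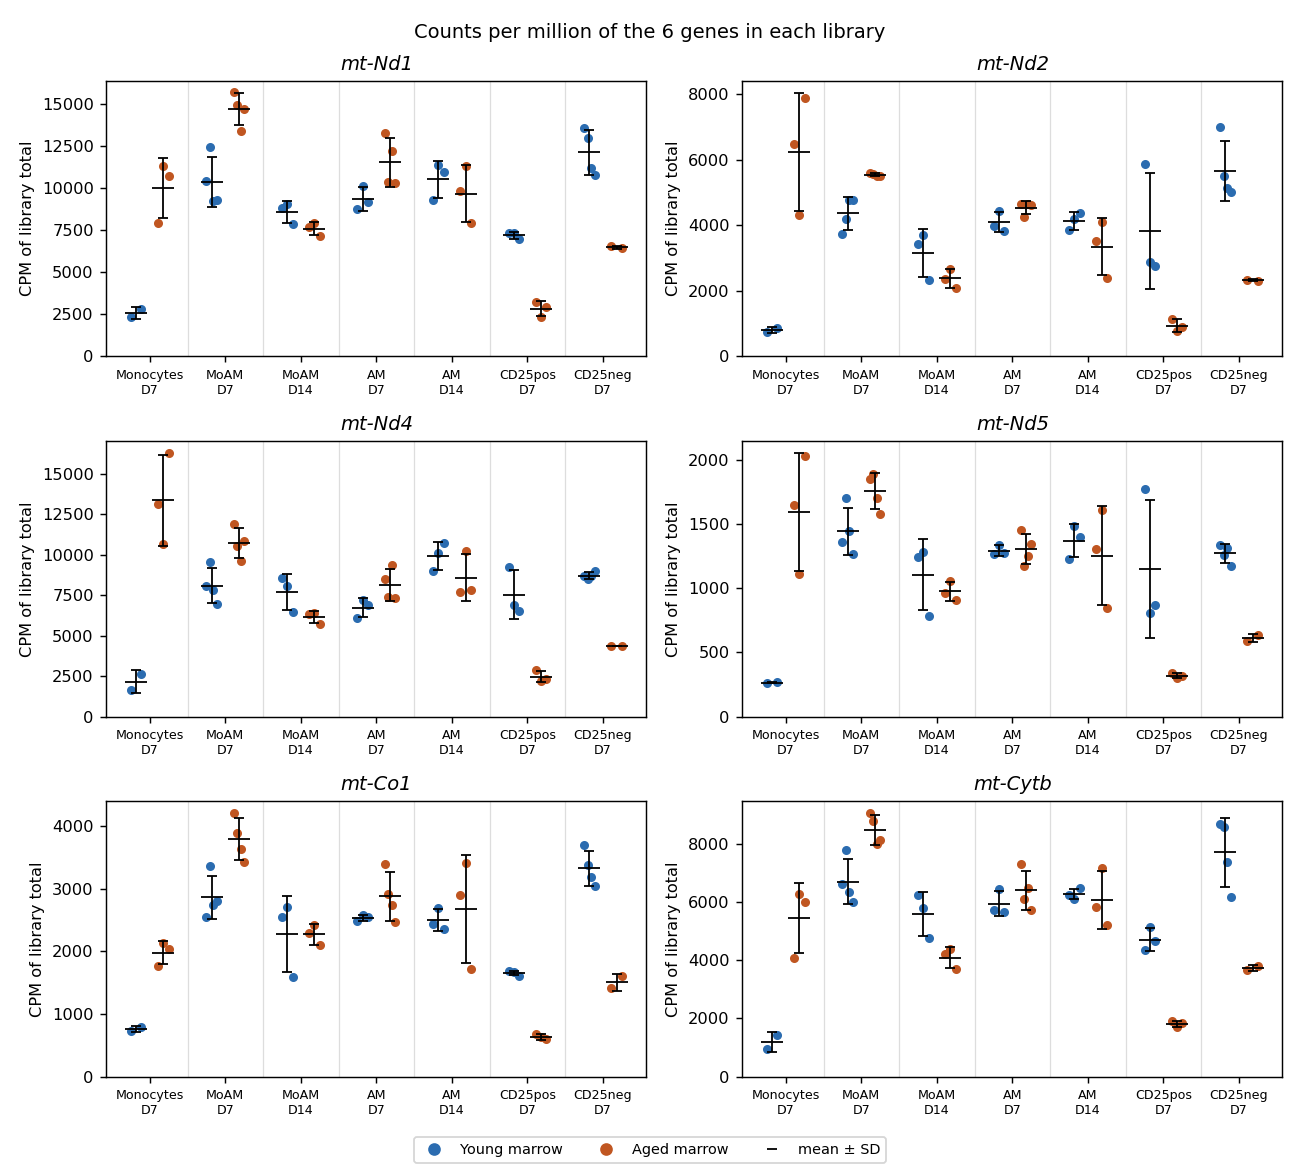
CPM (y axis, own scale for each gene) of the 6 genes in each library, by population and day (x axis); points are libraries by marrow age, and bars are mean ± SD. In MoAM the aged points lie above young at D7 and below young at D14 for mt-Cytb and mt-Nd4, and Monocytes young and CD25pos aged are low in all 6 panels.

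In Monocytes the gap between marrow ages was the widest as a ratio of mean shares, 4.97 times, yet 0 of 6 genes passed (6 had an unadjusted p under 0.05), as did 0% of 9303 genes in either direction. mt-Nd2 was at 747 and 880.4 CPM in young 1 and 2 and at 6483, 4324 and 7896 CPM in aged 1 to 3 (3.25 ± 0.37, adjusted p = 0.0772). mt-Nd4 was at 1636 and 2650.0 CPM against 13109, 10663 and 16263 CPM (2.95 ± 0.37, adjusted p = 0.0868). The young libraries lay far below all aged ones in both genes. mt-Nd1 was at 2325 and 2835 CPM against 7938, 11279 and 10723 CPM (2.26 ± 0.31, adjusted p = 0.101). mt-Nd5 (2.91 ± 0.38, adjusted p = 0.0868), mt-Cytb (2.505 ± 0.36, adjusted p = 0.122) and mt-Co1 (1.68 ± 0.29, adjusted p = 0.181) did not overlap between the groups either. mt-Co1 had the smallest fold of the 6 and mt-Nd2 the largest. With 2 young libraries the call depended on the method, since DESeq2 and limma voom each called 6 of 6; without aged 2 edgeR called 2, and without young 1 or young 2 it called 3. NK cell markers, 6 genes with none at 0, summed to 1678 and 1865 CPM in young and 121, 2884 and 586 CPM in aged 1 to 3, and classical monocyte markers to 4385 to 5195 CPM and 6823 to 11167 CPM, with 0 of 10 called. Sums of further marker lists did not overlap between the groups either and were higher in aged. Erythroid and platelet markers summed to 779 to 801 CPM in young and 1742 to 4042 CPM in aged, macrophage markers to 735 to 875 CPM and 1069 to 2681 CPM, and markers of profibrotic monocyte-derived macrophages to 1506 to 1520.4 CPM and 2124 to 4257 CPM. In young, Ppbp, Ctsd and Arg1 of these 3 lists were at 0. Resident alveolar macrophage markers summed to 472 to 539 CPM in young and 640.0 to 3444 CPM in aged. Fibroblast markers summed to 13.7 to 17.3 CPM and 25.6 to 119 CPM, and 0 genes of these 5 lists were called. Chil3 is on both the resident macrophage and the classical monocyte list. The mean log2 level over the resident list overlapped, with 3.82 and 3.76 in young and 3.50, 3.98 and 3.66 in aged. Siglecf, Marco and Krt79 of that list, and Lum of the fibroblast list, were at 0 in young. The part of these cells in the mitochondrial difference was not tested.

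In AM 0 of 6 genes passed between aged and young at D7, where 2.3% of 8614 genes were called higher and 1.69% lower, and 0 of 6 at D14, where 0.0348% of genes were called higher and 0.0464% lower. At D7 mt-Nd1 was at 8723, 10116 and 9158 CPM in young and 13240.1, 10338, 12191 and 10269 CPM in aged (0.35 ± 0.12, adjusted p = 0.0756). mt-Nd4 was at 6094, 7221 and 6869.8 CPM against 8513, 7379.9, 9373 and 7297.8 CPM (0.33 ± 0.12, adjusted p = 0.11). In CPM the aged libraries were higher in both, and a fit of these groups alone called 2 of 6; DESeq2 and limma voom called 0 at D7 and 0 at D14, and unadjusted p under 0.05 were found for 2 of 6 genes at D7 (mt-Nd1 and mt-Nd4) and 1 at D14 (mt-Nd2). The other 4 had log2 fold changes of 0.06 to 0.22 with adjusted p from 0.427 to 0.889. Marker sums of other cells were higher in AM D7 aged without overlap. Profibrotic macrophage markers summed to 2299 to 3065 CPM in young and 4515 to 5447 CPM in aged. In that order, neutrophil markers had 244 to 284 and 459 to 571 CPM, and B cell markers 12.5 to 31.5 and 101 to 219 CPM. Endothelial markers had 86.6 to 126 and 137 to 261 CPM, and fibroblast markers 20.9 to 38.3 and 55.4 to 153 CPM. Their part was not tested. At D14 the 6 values ran from -0.30 (mt-Nd2) to 0.11 (mt-Co1), each with an adjusted p of 0.999 and overlapping groups. The AM D14 aged libraries spread widely, with mt-Co1 at 2908, 3407 and 1717 CPM against 2436, 2699.7 and 2359 CPM in young. Those 3 libraries carry the run number 1218 in their names and all others 1396, so the run cannot be told apart from the group there. The D14 minus D7 difference of the age effect in AM called 0 of 6, where 0.557% of genes were called higher and 0.627% lower, with values from -0.53 (mt-Nd4) to -0.11 (mt-Co1).

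In CD25pos, the comparison that served to choose them, all 6 genes were lower in aged, where 1.41% of 12305 genes were called higher and 3.34% lower. mt-Nd2 had 5865, 2878 and 2751 CPM in young and 1149, 770.3 and 885 CPM in aged, and mt-Cytb 4343, 5120.1 and 4653 CPM against 1902, 1707 and 1844 CPM. The log2 fold changes ran from -2.28 (mt-Nd2) to -1.60 (mt-Nd1). Young 1 was high in mt-Nd2 and mt-Nd5 (1773, 805 and 871 CPM in young 1 to 3) and not in mt-Cytb. Beside these values, T cell markers summed to 1232 to 1608 CPM in young and 715 to 793 CPM in aged. Foxp3, which marks regulatory T cells, stood at 96.7, 114 and 112 CPM in young and 23.2, 38.3 and 38.2 CPM in aged.

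In CD25neg 1 of 6 genes passed, mt-Co1, lower in aged, where 0.065% of 12305 genes were called higher and 0.0894% lower. mt-Co1 had 3691, 3385, 3188 and 3039 CPM in young 1 to 4 and 1412 and 1599 CPM in aged 1 and 2 (-1.26 ± 0.25, adjusted p = 0.0414). The aged values lay below every young one, and this held for each of the 6 genes. With 2 aged libraries, and without the share of all genes tested that did so, this is a description. mt-Cytb had 8661, 8574, 7375 and 6174 CPM against 3648 and 3797 CPM (-1.17 ± 0.26, adjusted p = 0.0701), and mt-Nd4 8660.0, 8467, 8662 and 8983 CPM against 4335 and 4351 CPM (-1.12 ± 0.25, adjusted p = 0.0702). mt-Nd1, mt-Nd2 and mt-Nd5 had log2 fold changes of -1.02, -1.41 and -1.17 with adjusted p of 0.127, 0.072 and 0.177. The call depended on single libraries: 0 of 6 passed without any 1 of aged 1, aged 2, young 1, young 2 or young 3, while DESeq2 and limma voom called 6. Young 1 and 2 held fewer macrophage markers, 378 and 212 CPM, than young 3 and 4 with 1876 and 2372 CPM or the aged libraries. Cytosolic ribosomal protein genes took 20.9, 21.5, 13.8 and 13.1% of counts in young 1 to 4 and 10.4 and 10.5% in aged 1 and 2, and 5 of 83 were called lower in aged (median -0.78). The 5 NK cell markers tested had a median of -3.24 with 0 called, and all 6 summed to 45.1 to 137 CPM in young and 33.6 to 48.5 CPM in aged, where Klra8 and Klre1 were at 0. Sums of some further lists did not overlap and were higher in aged, given after young. Endothelial markers had 174 to 411 and 524 to 548 CPM and neutrophil markers 172 to 579 and 839 to 955 CPM. Alveolar epithelial markers had 27.3 to 45.05 and 124 to 126 CPM and fibroblast markers 26.9 to 103 and 149.7 to 154 CPM. T cell markers had 1456 to 1989 and 2439 to 2590 CPM. Erythroid and platelet markers were lower in aged, with 381 to 723 and 239 to 293 CPM. In these lists 0 genes were called. The part of these in the mitochondrial difference was not tested. Against young 3 and 4 alone, 0 of 6 passed, with log2 values from -1.19 (mt-Nd2) to -0.82 (mt-Nd1) where 0% of genes were called higher and 0.00801% lower.

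Over time, all 6 genes fell in MoAM with aged marrow from D7 to D14, where 7.02% of 10690 genes were called higher and 7.39% lower. mt-Nd2 went from 5589, 5573, 5500.1 and 5504 CPM in the 4 D7 libraries to 2372, 2679 and 2089 CPM in the 3 D14 libraries (-1.28 ± 0.12, adjusted p = 2.12e-11). mt-Cytb went from 9042, 8781, 7977 and 8109 CPM to 4192, 4365 and 3684 CPM (-1.11 ± 0.10, adjusted p = 3.94e-12). In both, every D14 library lay below every D7 library. mt-Nd1 (-1.01 ± 0.10, adjusted p = 2.12e-11), mt-Nd5 (-0.90 ± 0.12, adjusted p = 3.08e-07), mt-Nd4 (-0.86 ± 0.10, adjusted p = 9.52e-09) and mt-Co1 (-0.80 ± 0.12, adjusted p = 1.3e-05) also did not overlap. The 6 calls held when any 1 library was left out, MoAM D14 aged 1 included, and with depth as a covariate. D14 aged had 5744232 to 9921734 counts a library and D7 aged 485090 to 3453587, without overlap. Markers of other cells moved as well. Of 6 endothelial markers 5 fell (median -1.28), from a sum of 367 to 437 CPM to 177 to 183 CPM, and 3 of 6 tested erythroid and platelet markers fell, while 4 of 5 tested B cell markers rose. Of 20 dissociation response genes 8 fell and 4 rose. Markers of the macrophages themselves rose without overlap. Profibrotic macrophage markers summed to 7388 to 8265 CPM at D7 and 13924 to 14919 CPM at D14. Macrophage markers summed to 8750 to 8978 CPM and 11073 to 11945 CPM. Classical monocyte markers fell, from 4751 to 5026 CPM to 4074 to 4288 CPM. The part of all these in the fall of the mitochondrial genes was not tested.

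With young marrow, 2 of 6 genes fell in MoAM, mt-Nd2 (-0.45 ± 0.11, adjusted p = 0.00525) and mt-Nd5 (-0.35 ± 0.12, adjusted p = 0.043), where 6.81% of genes were called higher and 6.35% lower. mt-Nd2 was at 3731, 4192, 4757 and 4765 CPM at D7 and 3437, 3696 and 2316 CPM at D14. The decrease rested on D14 young 3, without which 0 of 6 passed; 1 passed without D7 young 1 or D7 young 2. The other 4 had values from -0.30 (mt-Co1) to -0.05 (mt-Nd4), with adjusted p from 0.0813 to 0.82. Here 3 of 6 endothelial and 3 of 4 tested fibroblast markers rose and 0 fell, and 8 of 20 dissociation response genes rose and 1 fell. Profibrotic macrophage markers summed to 5537 to 7615 CPM at D7 and 15527 to 15706 CPM at D14. Macrophage markers summed to 8689 to 8895 CPM and 11107 to 11731 CPM. The part of all these was not tested. The difference between the time courses of aged and young marrow is the same quantity as the difference of the age effect between the days given above.

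In AM 1 of 6 genes passed over time with young marrow and 1 with aged marrow. With young marrow mt-Nd4 rose from 6094, 7221 and 6869.8 CPM to 8966, 10069 and 10720.0 CPM (0.53 ± 0.13, adjusted p = 0.00311), where 4.25% of 8614 genes were called higher and 4.09% lower, and the call held without any 1 library. With aged marrow mt-Nd2 fell from 4640.4, 4251, 4653 and 4622 CPM to 3516, 4108 and 2401 CPM (-0.51 ± 0.13, adjusted p = 0.00704), where 4.2% of genes were called higher and 4.76% lower. That call was lost without AM D14 aged 3 (0 of 6), and 2 passed without AM D14 aged 2; the D14 libraries also came from the other run. With aged marrow 4 of 6 endothelial and 3 of 5 tested fibroblast markers fell too, and their part was not tested.

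Between populations at D7, averaged over marrow ages, all 6 genes were higher in MoAM than in Monocytes, where 15.9% of 10459 genes were called higher and 11.7% lower. The log2 fold changes ran from 0.97 ± 0.14 for mt-Nd4 to 1.74 ± 0.14 for mt-Cytb (adjusted p = 0.000105 and 2.23e-07). This average joined unequal parts. Against Monocytes young, MoAM young was higher in 6 of 6 genes by 2.21 (mt-Co1) to 2.80 (mt-Cytb), where 8.16% of genes were called higher and 5.83% lower. Against Monocytes aged, MoAM aged was higher in 3 of 6, where 11.7% of genes were called higher and 7.16% lower: mt-Co1 (0.98 ± 0.14, adjusted p = 0.000169), mt-Cytb (0.68 ± 0.18, 0.0121) and mt-Nd1 (0.60 ± 0.16, 0.0125). mt-Nd2, mt-Nd4 and mt-Nd5 had values of -0.13, -0.27 and 0.18 there, and these 3 genes took a larger part in Monocytes aged 1 and 3.

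AM had less of 5 of the 6 genes than MoAM at D7, by small amounts, where 15.7% of 8686 genes were called higher and 17.6% lower. mt-Nd4 was lower by the most (-0.26 ± 0.07, adjusted p = 0.00221), followed by mt-Cytb (-0.22 ± 0.07, adjusted p = 0.00722), mt-Nd5, mt-Co1 and mt-Nd1 (-0.18 ± 0.07, adjusted p = 0.032). The libraries overlapped in all 6, and mt-Nd2 did not pass (-0.12 ± 0.07, adjusted p = 0.189). Within aged marrow 5 of 6 passed, from -0.34 (mt-Nd5) to -0.20 (mt-Nd2, not passed), where 10.8% of genes were called higher and 11.5% lower. Within young marrow 0 of 6 passed, from -0.20 (mt-Nd4) to -0.03 (mt-Nd2), where 11% of genes were called higher and 12.9% lower; the difference between these was not tested. Without MoAM D7 aged 1 the count was 2 of 6. Of 6 endothelial markers 4 were lower in AM, as were 40 of 82 cytosolic ribosomal protein genes, with 1 higher, and their part was not tested. In CD25pos, which includes the libraries that chose the genes, 5 of 6 were lower than in CD25neg, where 3.05% of genes were called higher and 3.44% lower, and nothing is read from this.

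**Figure D4:**
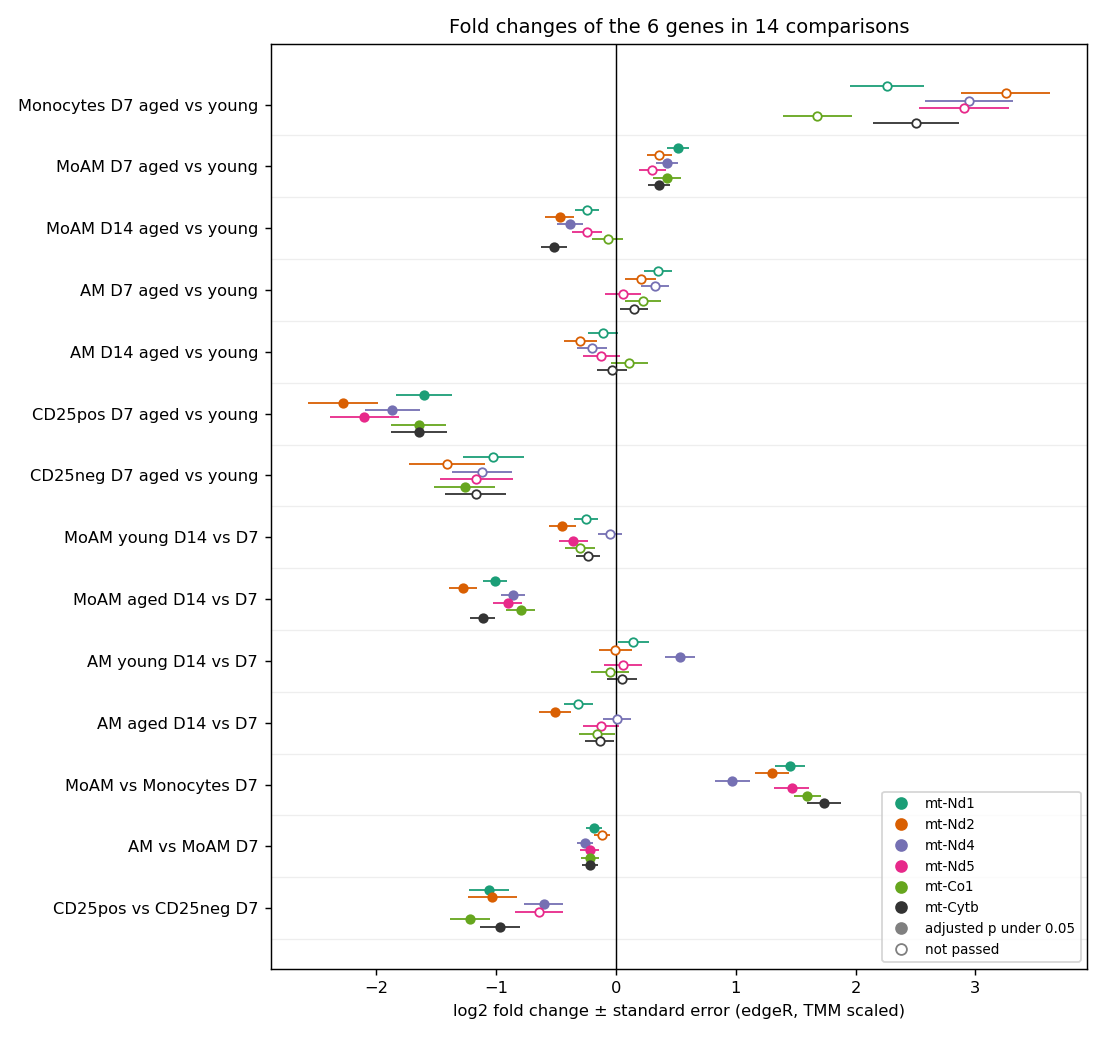
Log2 fold changes of the 6 genes (x axis, edgeR with TMM scaling) in each of 14 comparisons (y axis); lines are standard errors, filled points have an adjusted p under 0.05 and open points do not. All 6 points are filled below 0 for MoAM aged D14 against D7 and above 0 for MoAM against Monocytes; the CD25pos aged against young row is the comparison that chose the genes.

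Nuclear genes of the same complexes did not follow in every comparison. A list of 89 symbols for nuclear subunits of complexes I to V had 72 in the table. In MoAM D7, 0 of 72 differed between marrow ages (median -0.02, against 0.39 for the 6 mitochondrial genes), and in MoAM D14 1 was higher, Cox7b (0.68, adjusted p = 0.00108), a subunit of complex IV. In Monocytes 0 of 69 tested passed (median 0.58), and in CD25neg 0 of 72 (median -0.15). In AM D7, 5 of 71 were higher, among them Ndufv2 (0.87) and Ndufa5 (0.76) of complex I and Atp5j (1.00) of ATP synthase, and 1 was lower, Atp5g3 (-0.49). In the description of CD25pos 23 of 72 were lower in aged, as were 44 of 83 cytosolic ribosomal protein genes.

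Over time in MoAM, nuclear subunits fell with both marrows, 25 of 72 with young (median -0.35) and 21 of 72 with aged (median -0.24). Atp5g3, a ring subunit of ATP synthase, fell by 0.90 with young and by 0.58 with aged, and Sdhb, the iron-sulfur subunit of complex II, fell by 0.79 and 0.77. Cytosolic ribosomal protein genes fell too, 45 and 34 of 83. With aged marrow 4 of 10 tested genes of the mitochondrial stress response fell, Gdf15 (-1.02), Atf4 (-0.90), Psat1 (-1.04) and Atf5 (-0.63), and 3 of 15 glycolytic genes, Gapdh (-0.81), Ldha (-0.34) and Tpi1 (-0.48). With young marrow 1 of the 10 stress response genes fell, Atf4 (-0.62), and 2 of 15 glycolytic genes rose, Slc2a1 (0.60) and Pkm (0.45), with 0 lower. In AM 8 and 9 of 71 nuclear subunits fell, with young and aged marrow.

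MoAM exceeded Monocytes in 54 of 72 nuclear subunits (median 1.29), among them Uqcrb of complex III (2.85), Cox7a2 of complex IV (1.99) and Ndufc1 of complex I (1.97). Between AM and MoAM the nuclear and mitochondrial genes differed in direction: 18 of 71 nuclear subunits were higher in AM and 0 lower (median 0.21), while 5 of 6 mitochondrial genes were lower. Cox5a (0.58) and Cox6c (0.57) of complex IV and Ndufa5 (0.75) of complex I were among the 18. Dissociation response genes were lower in AM in 18 of 19 cases (median -0.80). Of genes that maintain and express mitochondrial DNA, such as polymerases and RNA processing factors, 0 of 31 tested differed by marrow age in MoAM at D7 and 0 of 31 at D14. From D7 to D14 1 rose and 1 fell with young marrow and 0 of 31 changed with aged marrow.

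As measured, the mitochondrial share had a negative r with depth in MoAM, AM and CD25neg and a positive one in CD25pos. Without the 2 libraries of most extreme depth, the sign changed in AM and CD25neg. The values are a description, with no p for a share summed over chosen genes, and 8 such relations were computed. In MoAM (14 libraries) Pearson's r of the share with log10 total count was -0.62 and Spearman's rho -0.68, and r was -0.51 without the 2 libraries of most extreme depth. After centring on group means r was -0.49, and it was 0.06 without those 2, so it rested on them. In AM (13 libraries) r was -0.38 as measured and 0.14 without 2, and -0.72 after centring, -0.45 without 2. Depth differed between the days in MoAM, so depth and day cannot be told apart in the uncentred value. In CD25pos (6 libraries) r was 0.57 as measured and 0.20 without 2, and -0.16 after centring, -0.80 without 2. In CD25neg (6 libraries) r was -0.47 as measured and 0.78 without 2, and -0.83 after centring, -0.94 without 2. Both populations then kept 4 libraries. For the Monocytes, with 5 libraries, no r was computed. With depth as a covariate, all 6 genes still fell over time in MoAM aged, 4 of 6 were higher in MoAM D7 aged and 2 of 6 lower in MoAM D14 aged, while mt-Nd2 in AM aged over time did not pass (-0.27).

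**Figure D5:**
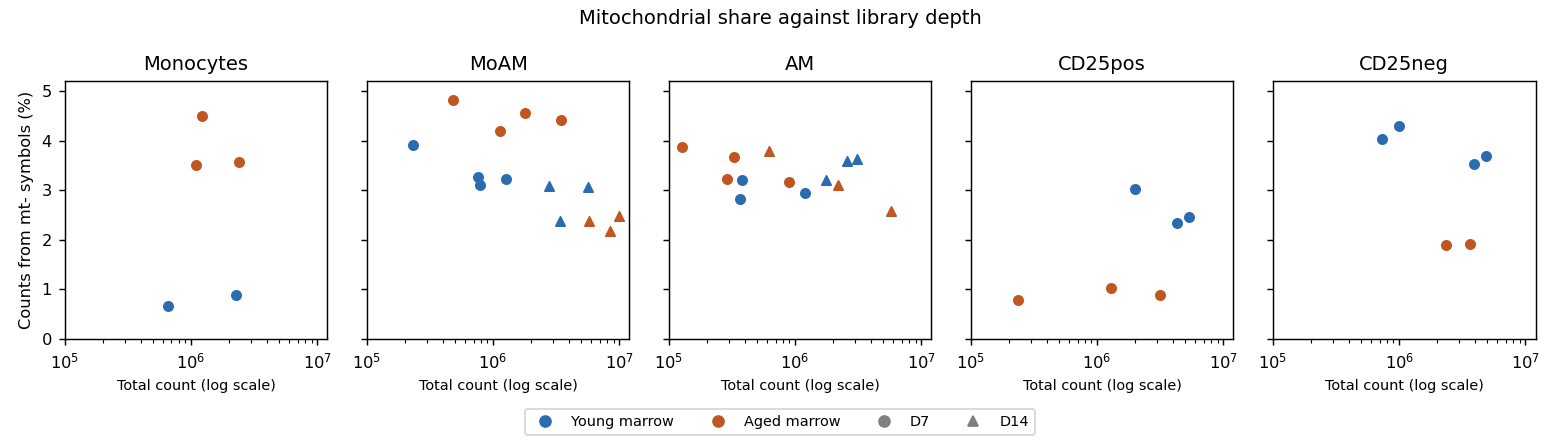
Share of counts from mt- symbols (percent, y axis) against total count of the library (x axis, log scale) in the 5 populations; color marks marrow age, circles D7 and triangles D14. Monocytes young and CD25pos aged lie low over the depths they cover, and the 6 MoAM D14 libraries have the lowest shares of MoAM.

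The nuclear genes whose pattern was most like the mean of the 6 were ranked by Pearson's r of log2 CPM over the 44 libraries, among 8426 genes with a mean of at least 10 CPM. Slc25a5, an ADP/ATP carrier of the inner mitochondrial membrane, came first with 0.82. Among the 10 highest were also Paics (0.80), an enzyme of purine synthesis, Atp5h (0.79), a subunit of ATP synthase, Zfp598 (0.78), Tomm7 (0.78), part of the protein import pore of the outer membrane, Dynll1 (0.78), Rpl37 (0.77), Tmed9 (0.76) and Sri (0.75). Nuclear subunits of ATP synthase had a median r of 0.65 (13 genes) and those of complex IV 0.58 (10 genes). Those of complex I had 0.36 (35 genes), and all genes compared -0.08. The points share library, population and depth, and these are descriptions.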

How the data were processed

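Counts per gene were measured by 3′ tag sequencing (QuantSeq FWD with UMI second strand, per the labels' protocols) in 44 libraries. The values are raw counts deposited by the authors, aligned and counted by them; the submitters' processing notes list STAR 2.7.9a, featureCounts, Trim Galore 0.6.6, edgeR 3.36.0, Picard and FastQC, and name mm10 and GRCm39 without a role. Whether identifiers were collapsed is not given in the sources used here. A second deposited table, in CPM, was not used.

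CPM were computed here from each library's total. Tests used edgeR 4.0.16 in R 4.3.3: filterByExpr, TMM scaling and the robust quasi-likelihood F test within each population (CD25pos and CD25neg together, and pairs of populations at D7), adjusted over all genes tested and called under 0.05. Standard errors of log2 fold changes were derived from the F values. On simulated MoAM D7 counts for 10433 genes, 79 of 100 genes changed by 1 and 97 of 100 changed by 2 on the log2 scale were called, as were 3 unchanged genes. Between marrow ages or days, replicate numbers did not pair libraries: correlations of deviations from group means ran from -0.04 to 0.07. Pairing between populations, as when several were sorted from the same mouse, was not checked. Tests between populations took their libraries as independent. Sequences and positions come from GENCODE M21 (GRCm38), which matched 97.4% of symbols. All 6 genes are named in every comparison; list genes are up to 4 called genes per list with the smallest p. Of the 10 genes most alike in pattern, 1 is not reported here. The genes and lists were chosen with earlier results of these data known. Alternatives covered header titles, DESeq2 1.42.0, limma 3.58.1 (voom), filtering, scaling, depth, replicate blocks and leaving out libraries.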

Additional observations from a re-analysis of the deposited data

Results flagged for a closer look

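The aged against young difference in MoAM differed between the days by edgeR's quasi-likelihood test of the difference itself, with D14 minus D7 values on the log2 scale of -0.76 for mt-Nd1, -0.83 for mt-Nd2, -0.81 for mt-Nd4, -0.55 for mt-Nd5 and -0.88 for mt-Cytb. With the printed headers none of these passed and the 6 values were above 0, from 0.52 to 0.84. In AM D7 aged, replicate 2 had 4251 CPM of mt-Nd2, apart from the other 3 libraries at 4622 to 4653 CPM. This was 1 of 28 checks of a library against its group, and about 1 in 20 such checks would be met by chance.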

How the results depend on the processing

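With the printed headers the members called were 0 in MoAM D7, 0 in MoAM D14, 6 higher in AM D7, 0 in CD25pos and 6 lower in CD25neg. They were 0 in MoAM aged D14 against D7, 6 higher in AM young and 1 higher, reversed, in AM aged over time, 0 in MoAM against Monocytes and 6 higher, reversed, in CD25pos against CD25neg. Of the 40 log2 values called with the sorted titles, 27 reversed with the printed headers and are listed here. Of the 44 not called, 22 reversed, with absolute log2 values up to 2.51, and are not listed. In MoAM D7 aged against young the listed values were mt-Nd1 -0.19, mt-Nd4 -0.24, mt-Co1 -0.10 and mt-Cytb -0.0587. In MoAM D14 aged against young they were mt-Nd2 0.41, mt-Nd4 0.60 and mt-Cytb 0.46. In CD25pos D7 aged against young they were mt-Nd1 0.23, mt-Nd2 0.33, mt-Nd4 0.0474, mt-Nd5 0.35, mt-Co1 0.24 and mt-Cytb 0.22. The others were MoAM aged D14 against D7 mt-Nd1 0.042, mt-Nd2 0.11, mt-Co1 0.15, mt-Cytb 0.0708; AM aged D14 against D7 mt-Nd2 0.73; MoAM against Monocytes D7 mt-Nd1 -0.0204, mt-Nd4 -0.00204, mt-Co1 -0.17, mt-Cytb -0.0383; CD25pos against CD25neg D7 mt-Nd1 1.12, mt-Nd2 0.94, mt-Nd4 0.88, mt-Co1 1.18, mt-Cytb 1.46. With the printed headers the aged minus young mitochondrial share was -0.223 points in Monocytes, -0.255 in MoAM D7 and 1.05 in MoAM D14. It was 1.65 in AM D7, 1.23 in AM D14, 0.631 in CD25pos and -2.895 in CD25neg. With the sorted titles the CD25neg difference was -1.983 points, and -2.599 without ribosomal protein counts.

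With the sorted titles no called gene reversed. Counts of 6 moved as follows. DESeq2 called 6 in Monocytes, 6 in CD25neg and 1 in MoAM young over time. Limma voom called 6, 6 and 0 there, and 1 in MoAM D7. Without the filter on low counts they were 6, 6 and 1. With depth as a covariate they were 5 in Monocytes, 1 in MoAM young and 0 in AM aged over time. Fits of only the groups compared, added after seeing the data, called 1 in MoAM D14, 2 in AM D7, 4 in CD25neg and 1 in MoAM young over time. Library totals without TMM, also added, called 5 in CD25neg. The replicate block called 6 in Monocytes, 1 in AM D7, 6 in CD25neg, 1 in MoAM young and 0 in AM aged over time. Leaving out 1 library gave 0 to 3 calls in Monocytes, 1 to 4 in MoAM D7, 1 to 4 in MoAM D14, 0 to 2 in CD25neg, 0 to 3 in MoAM young and 0 to 2 in AM aged over time. It gave 2 to 6 in AM against MoAM and 4 to 6 in CD25pos against CD25neg. The cause was not tested. Where a group kept 1 library, that library was assumed to vary like the others. Shallow libraries, down to 126283 counts, limit AM D7.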
